A study of Mus musculus with 12 samples.

Results

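The genes described are 10 AP-1 and immediate early genes of mouse marrow. They are the AP-1 subunits Jun, Junb, Jund, Fos, Fosb and Fosl2, together with Egr1, Atf3, Ier2 and Dusp1. They were taken by gene name from the deposited table, which lists 34745 genes, and all 10 were found there, each as 1 row. Of the 10, 9 had enough counts to be tested in every comparison, and Fosb did not.

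Immediate early genes are transcribed within minutes of a signal, from factors that are already present in the cell, so their RNA rises without new protein synthesis and is short-lived. Jun and Fos proteins pair through leucine zippers to form AP-1, a dimer that binds short DNA sites and drives genes of growth, differentiation and stress. Growth factors, cytokines and stress reach these genes through MAP kinases, and phosphatases such as Dusp1 switch the kinases off again. In marrow, AP-1 and Egr1 are known for their part in monocyte and macrophage differentiation and in stem cell quiescence. The same genes are also known to respond to handling of tissue and dissociation of cells.

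RNA was sequenced from the total marrow cells of the femur of 12 male ICR mice, an outbred strain, in 4 groups of 3 separate mice. Normal mice had saline only. Model mice were injected intraperitoneally with cyclophosphamide, an alkylating drug toxic to dividing cells, at a daily 80 mg/kg from day 5 to day 7 of the week, and saline in place of a drug. QJSB mice had these injections and also took Qi-Jing-Sheng-Bai granule, a herbal formula, by mouth at a daily 3 g/kg for 1 week. Leucogen mice had the injections and took leucogen, which is used against low white cell counts, by mouth at a daily 20 mg/kg over the same week. All 3 treated groups therefore carried cyclophosphamide, and no group received a drug without it. In the deposited table the column headings are Blank, taken here as normal, Model, Positive, taken as leucogen, and Stilbene, taken as QJSB by elimination. This reading was compared with mean counts in the study's supplementary lists of 300 genes for each of 3 comparisons, and all 300 agreed within 1% each time, against at most 10 under any other pairing of lists and columns.

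Library totals ran from 11172547 to 18545198 counts. Levels are given as CPM, the count relative to the TMM-scaled total of its library, and a difference was called when it exceeded 1.5-fold with an adjusted p under 0.05 (edgeR quasi-likelihood test, Benjamini-Hochberg adjustment over all genes tested). With 3 mice against 3, an exact permutation test of a single gene cannot go below p = 0.1. The groups also differed in cell composition: the summed level of 9 erythroid marker rows was 16009 to 19687 CPM in normal and 320 to 1991 CPM in the treated groups, and that of 11 B cell markers was 1924 to 2078 CPM in normal and 13.1 to 253 CPM after cyclophosphamide. Since this is bulk RNA, fewer cells of a type and less RNA per cell cannot be told apart in any value below.

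Signals reach a gene partly through the sequence upstream of it. Promoters were taken from RefSeq (GRCm38.p6, 250 bases before to 50 bases after the start), where 8 of the 10 genes were matched and Egr1 and Ier2 were not. Both strands were searched for 4 motifs of the ATF, CREB and AP-1 factors, TGACGT, its longer form TGACGTCA, the variant TGACATCA, and TGANTCA, the AP-1 site. TGACGT was found for Fos, Dusp1 and Atf3, 3 of 8 genes, and in 7.51% of all 32851 promoters. TGACGTCA, which contains TGACGT on both strands, was found for Dusp1 and in 1.79% of all promoters. TGACATCA was found for Jun and in 3.62% of all promoters, and TGANTCA in none of the 8 windows and in 7.81% of all. Of the 10 genes, Fos, Jun and Dusp1 had the largest SD of log2 CPM among normal mice. The 3 sequences below lie upstream of their gene models, and the motif letters are in capitals. They run from 5′ to 3′ on the strand of the gene, at chr12:85473640-85473889 (plus strand) for Fos, chr4:95052223-95052472 (minus strand) for Jun and chr17:26508520-26508722 (minus strand) for Dusp1.
Fos: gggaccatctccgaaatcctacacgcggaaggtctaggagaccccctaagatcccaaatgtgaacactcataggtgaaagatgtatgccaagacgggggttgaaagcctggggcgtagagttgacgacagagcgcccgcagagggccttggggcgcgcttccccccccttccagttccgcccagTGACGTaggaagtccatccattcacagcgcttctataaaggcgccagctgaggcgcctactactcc
Jun: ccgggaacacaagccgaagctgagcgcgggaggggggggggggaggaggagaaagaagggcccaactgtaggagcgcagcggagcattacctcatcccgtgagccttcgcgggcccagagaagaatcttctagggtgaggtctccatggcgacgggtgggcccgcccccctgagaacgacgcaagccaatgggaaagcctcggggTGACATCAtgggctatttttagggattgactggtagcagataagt
Dusp1: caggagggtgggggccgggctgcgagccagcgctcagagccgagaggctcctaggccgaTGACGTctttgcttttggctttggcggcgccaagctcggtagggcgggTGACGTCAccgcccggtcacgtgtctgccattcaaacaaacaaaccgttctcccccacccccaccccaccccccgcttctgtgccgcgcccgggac
The capitals begin 66 bases before the start of Fos and 45 bases before that of Jun. In Dusp1 they begin 191 and 143 bases before the RefSeq start. A match of letters is a description of the sequence and not evidence of binding. Sites of the serum response factor SRF and of the ELK factors were not searched for, nor was sequence outside these windows.

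The Jun family supplies the partner that every AP-1 dimer of this kind needs. Jun (ENSMUSG00000052684, chr4:95049034-95052222, minus strand, a single exon) is the member that activates most strongly. Its levels were 26.6, 14.5 and 8.41 CPM in normal, 5.60, 4.82 and 7.90 CPM in model, 7.30, 18.8 and 11.3 CPM in QJSB and 3.65, 4.49 and 3.07 CPM in leucogen. Each normal mouse was above each model mouse, each leucogen mouse was below all of the others, and the QJSB mice spanned the gap, overlapping both normal and model. The order of the means was normal (16.5 ± 9.25 CPM, SD, n = 3), QJSB (12.5 ± 5.84), model (6.11 ± 1.60) and leucogen (3.74 ± 0.715). An antisense gene, Junos, overlaps Jun on the other strand and had a mean of 12.3 counts.

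Junb (ENSMUSG00000052837, chr8:84976909-84978748, minus strand, a single exon) often restrains Jun and is known as a brake on myeloid proliferation. It measured 23.0, 22.2 and 15.0 CPM in normal, 15.4, 14.5 and 30.1 CPM in model, 19.1, 27.3 and 21.7 CPM in QJSB and 6.99, 13.6 and 8.54 CPM in leucogen. All 3 leucogen mice were lower than every other mouse, and the first 3 groups overlapped. Jund (ENSMUSG00000071076, chr8:70697739-70700616, plus strand, a single exon) is the family member usually expressed without a stimulus. It measured 31.2, 30.3 and 28.4 CPM in normal, 3.75, 2.76 and 5.02 CPM in model, 4.51, 9.83 and 5.72 CPM in QJSB and 2.94, 2.61 and 1.25 CPM in leucogen. The normal mice lay close together and far above the rest, and the treated groups followed in the order QJSB, model and leucogen, with QJSB overlapping model and model overlapping leucogen. An overlapping antisense gene model, Gm11175, had a mean of 2.17 counts.

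Of the Fos family, Fos (ENSMUSG00000021250, chr12:85473890-85477273, plus strand, 4 exons) is the classic inducible partner of Jun. Its levels were 36.1, 15.2 and 3.17 CPM in normal, 16.6, 17.8 and 18.0 CPM in model, 19.4, 40.6 and 25.2 CPM in QJSB and 4.92, 3.91 and 2.97 CPM in leucogen. The normal mice covered almost the whole range of the experiment, while the model mice lay within 1.5 CPM of each other, every QJSB mouse was above every model mouse, and every leucogen mouse was below every model mouse. The order of the means was QJSB (28.4 ± 10.9 CPM, SD, n = 3), normal (18.1 ± 16.7), model (17.4 ± 0.777) and leucogen (3.94 ± 0.974), and the range of normal overlapped that of each treated group.

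Fosl2 (ENSMUSG00000029135, chr5:32135801-32157842, plus strand, 4 exons), which encodes FRA2, a Fos protein without a strong activation domain, was ordered differently. It measured 166, 159 and 136 CPM in normal, 107, 112 and 121 CPM in model, 113, 162 and 188 CPM in QJSB and 228, 210 and 240 CPM in leucogen. The model mice and the first QJSB mouse were the lowest, and all leucogen mice were higher than every other mouse. Fosb (ENSMUSG00000003545, chr7:19302721-19310045, minus strand) had 10, 5 and 3 counts in normal, 2, 4 and 0 in model, 2, 5 and 0 in QJSB and 0, 4 and 0 in leucogen. Those counts do not separate the groups at this depth, and the gene was not tested.

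Among the other transcription factors, Egr1 (ENSMUSG00000038418, chr18:34859823-34864984, plus strand, 2 exons), a zinc finger protein downstream of SRF and the ELK factors, measured 7.17, 7.82 and 5.72 CPM in normal, 0.865, 0.709 and 0.923 CPM in model, 1.61, 2.02 and 1.58 CPM in QJSB and 1.35, 0.870 and 0.959 CPM in leucogen. Normal stood above all treated mice, every QJSB mouse was above every model and leucogen mouse, and model and leucogen overlapped. The counts behind the treated values were small, 10 to 35 per library. Atf3 (ENSMUSG00000026628, chr1:191170296-191218039, minus strand, 4 exons), a stress-induced bZIP factor, measured 1.16, 1.92 and 1.38 CPM in normal, 1.62, 2.62 and 0.865 CPM in model, 1.88, 0.868 and 1.34 CPM in QJSB and 1.03, 1.01 and 1.06 CPM in leucogen. Its ranges overlapped except between normal and leucogen, on 11 to 37 counts per library.

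Ier2 (ENSMUSG00000053560, chr8:84661331-84662852, minus strand, a single exon) encodes a small nuclear protein and is induced early with Fos and Jun. It measured 46.7, 43.4 and 30.5 CPM in normal, 29.1, 26.0 and 39.0 CPM in model, 33.3, 72.8 and 49.0 CPM in QJSB and 30.4, 43.4 and 32.0 CPM in leucogen. All pairs of groups overlapped. Dusp1 (ENSMUSG00000024190, chr17:26505590-26508519, minus strand, 3 exons) encodes the phosphatase that dephosphorylates p38 and JNK and is itself an immediate early gene. It measured 104, 54.1 and 33.4 CPM in normal, 12.9, 15.0 and 6.29 CPM in model, 10.4, 72.3 and 28.4 CPM in QJSB and 3.18, 7.61 and 5.08 CPM in leucogen. Normal was above model and leucogen without overlap, and the QJSB mice ranged from below 2 of the model mice to above 2 of the normal mice.

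**Figure D1:**
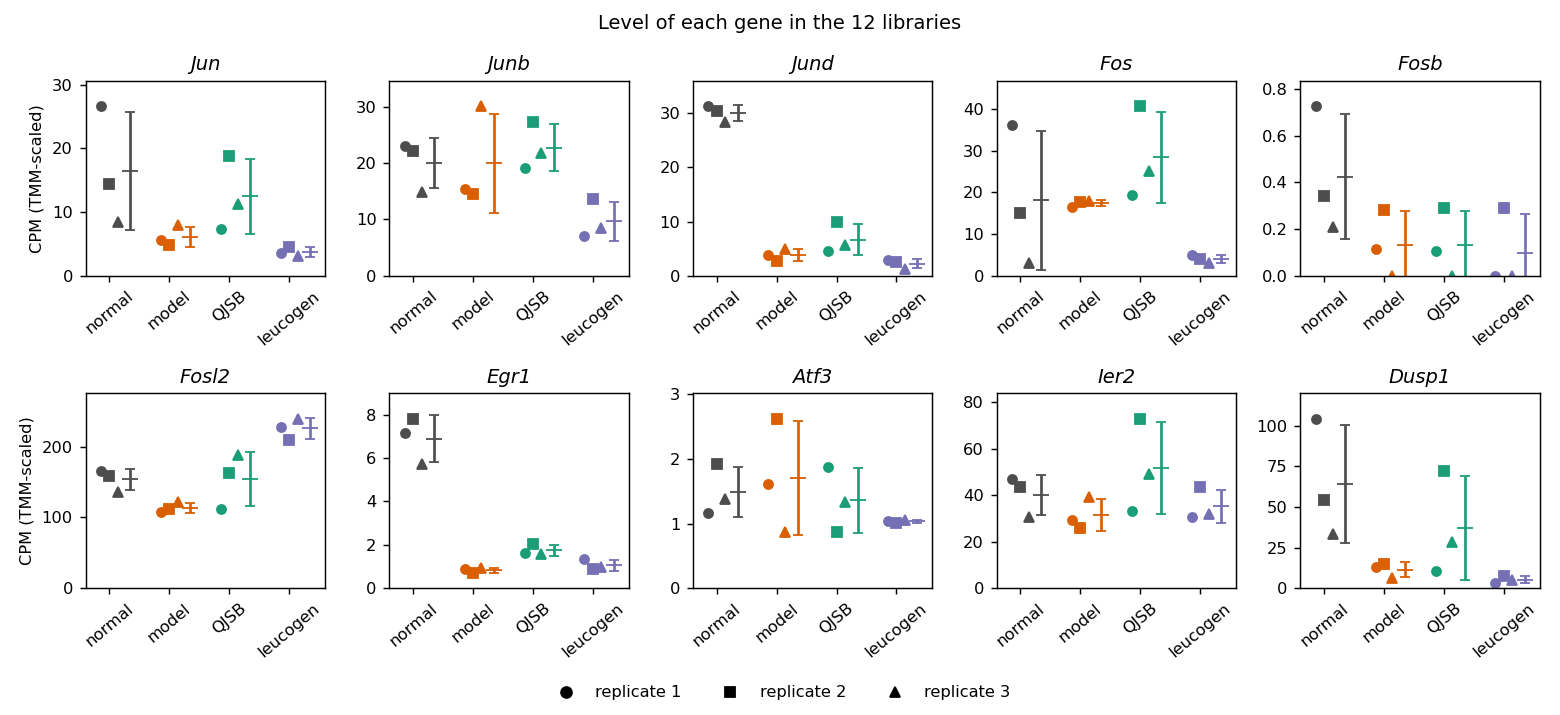
Level of each of the 10 genes in CPM after TMM scaling (vertical axes, each from 0) in the 4 groups, with 1 point per mouse shaped by replicate number and a bar at the mean with the SD of 3 mice (bars that would run below 0 end there). Jund and Egr1 stand high in normal only, Fosl2 is highest in leucogen, and the second QJSB mouse is the highest of its group for 8 of the 10 genes.

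On a scale per transcript length the genes spanned a wide range. In normal marrow the mean FPKM was 25.9 for Ier2, 12.2 for Dusp1, 10.7 for Junb, 10.2 for Jund, 5.06 for Jun, 4.67 for Fos, 0.900 for Egr1, 0.569 for Atf3 and 0.111 for Fosb, with Fosl2 between Ier2 and Dusp1. In model marrow Ier2 was again first with 22.0 FPKM, followed by Junb with 11.5 and Fosl2 with 10.4, and Jund had 1.42. Of the Jun family, Jund had about the level of Junb in normal marrow (10.2 ± 0.414 against 10.7 ± 2.28 FPKM, SD, n = 3) and was the lowest of the family in model (1.42 ± 0.385 FPKM, against 2.04 ± 0.470 for Jun). In leucogen, Fosl2 had 18.6 FPKM and Fos 0.997 FPKM.

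The first comparison asked how 3 days of cyclophosphamide changed these genes. Jund, Egr1, Dusp1 and Jun fell in model marrow, by 7.73-fold, 8.16-fold, 5.62-fold and 2.69-fold, and no member rose. Junb, Fos, Atf3 and Ier2 did not pass the test, and Fosl2 was 1.35-fold lower, under the fold change required. So 4 of 9 tested members were called, all lower, beside 19% of 14752 genes called lower and 35.1% called in either direction. The log2 fold changes were -2.95 for Jund (SE 0.23, edgeR adjusted p = 4.8e-05), -3.03 for Egr1 (SE 0.28, edgeR adjusted p = 9.9e-05), -2.49 for Dusp1 (SE 0.50, edgeR adjusted p = 0.00834) and -1.43 for Jun (SE 0.41, edgeR adjusted p = 0.0270). For Fosl2 it was -0.44 (SE 0.13, edgeR adjusted p = 0.0245). For Fos it was -0.053 with an SE of 0.73, the widest of the members, and without the first normal mouse it was 0.93. Leaving out the first or second normal mouse, or the first or second model mouse, ended the call of Jun (edgeR adjusted p = 0.0545 to 0.0963), as did the tests on FPKM (limma adjusted p = 0.0521 and 0.0567), while Jund, Egr1 and Dusp1 remained called in every alternative run.

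Of 22 other immediate early genes tested, 12 fell and 3 rose, with a median log2 fold change of -0.99 against 0.024 over all genes. The largest falls were those of Ppp1r15a, which relieves the block of translation under stress (-3.98, SE 0.50, edgeR adjusted p = 0.00115), Btg2, an antiproliferative gene (-2.90, SE 0.21, edgeR adjusted p = 3.3e-05), and Trib1, a pseudokinase that directs C/EBPα for degradation (-2.70, SE 0.29, edgeR adjusted p = 2.1e-04). Those that rose were Cyr61 (2.53), Klf4 (1.28) and Gadd45b (1.13), with Cyr61 at 5 to 8 counts per normal library and 29 to 57 per model library. Of 11 other MAP kinase phosphatases and feedback inhibitors, 6 fell and none rose, with a median of -1.69, including Dusp8 (-5.70), Dusp2 (-2.84) and Dusp6 (-2.11), the phosphatase that acts on ERK. Dusp8 had a mean of 13.2 CPM in normal and 0.240 CPM in model.

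Of 19 MAP kinases, their activators and targets, and serum response factors, 3 rose and 2 fell, and the median was 0.036. Mapkapk2, a kinase downstream of p38, rose by 1.39, Rps6ka1, a ribosomal S6 kinase, by 0.80 and Srf itself by 0.77, while Elk4, a partner of SRF, fell by 1.72 and Map3k1 fell by 0.91 on the log2 scale. Among other AP-1 and related bZIP genes, Batf rose (0.85) and Mafk fell (-1.53). Over the same mice, 9 of 9 erythroid and 9 of 11 B cell markers fell and 6 of 6 promyelocyte markers rose, from 760 to 971 CPM summed in normal to 6680 to 9597 CPM in model, and no defining marker of these lists was at 0 in all model mice. Of 9 T and NK cell markers 8 fell, with a median of -2.17, and Nkg7, which the promyelocyte list also holds, rose (2.36). Monocyte and macrophage markers went both ways: 4 of 10 rose, including F13a1 (1.70) and Ly6c2 (1.41), and 3 fell, including C1qa (-1.61) and C1qb (-1.49), while their sum was 1142 to 1288 CPM in normal and 1978 to 3153 CPM in model. Of 12 neutrophil markers 4 fell, Retnlg (-3.95), Mmp9 (-2.79), Mmp8 (-1.79) and Camp (-1.69), with a median of -1.14 over the list. The part of cell composition in the changes of the members was not tested.

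**Figure D2:**
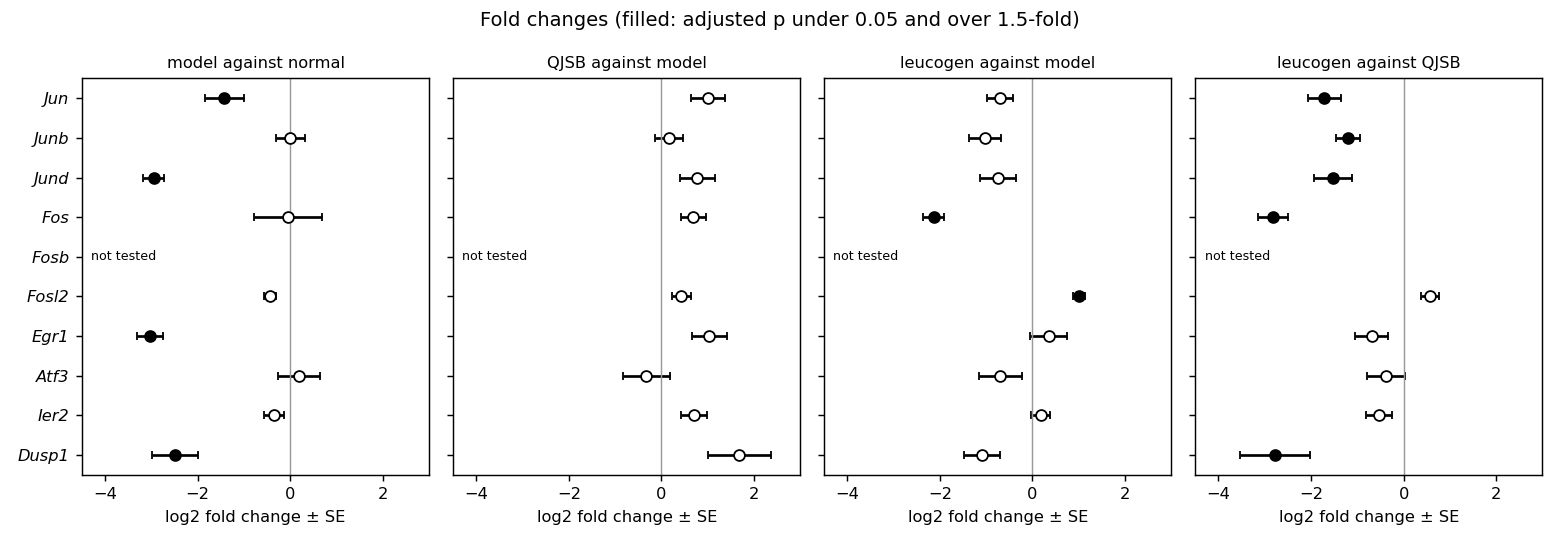
Log2 fold change with its standard error (horizontal axis) of each gene in 4 comparisons, with filled points for genes past an adjusted p of 0.05 and 1.5-fold and Fosb not tested. Filled points number 4 for model against normal, none for QJSB against model, 2 for leucogen against model and 5 for leucogen against QJSB.

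The second comparison asked what the granule changed on top of cyclophosphamide. No member was called with QJSB, beside 0% of 14486 genes (0 called), and the smallest edgeR adjusted p over all genes was 0.767. Without adjustment, 723 genes (4.99%) had a p under 0.05, and DESeq2 also called 0 members. Of 9 members, 8 had a log2 fold change above 0, beside 48% of all genes, and the median of the members was 0.70 against -0.016 over all genes.

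The study's own limits were 1.5-fold and an unadjusted P under 0.05, which it applied to DESeq2. With these limits on the edgeR p, 5 members passed and all were higher in QJSB, beside 1.68% of all genes that passed as higher and 3.08% in either direction. With the DESeq2 p, added after the data had been seen, 4 of these passed, all but Egr1, beside 1.81% of all genes as higher and 3.07% in either direction. The 5 were Dusp1 (log2 fold change 1.69, SE 0.68), Egr1 (1.04, SE 0.37), Jun (1.01, SE 0.37), Ier2 (0.70, SE 0.29) and Fos (0.68, SE 0.27), each with an edgeR adjusted p of 0.767. Jund was at 0.78 (SE 0.37), Fosl2 at 0.43 (SE 0.20), Junb at 0.17 (SE 0.30) and Atf3 at -0.32 (SE 0.50). The groups were apart for Egr1 and Fos alone, 2 of 9 members, beside 4.5% of all genes that were apart and higher. For the other members within those limits the first QJSB mouse lay within the model range, as at 10.4 CPM of Dusp1 against 6.29 to 15.0 CPM, or at 7.30 CPM of Jun against 4.82 to 7.90 CPM. The study itself went on with only the top 300 of its passing genes, ranked by absolute log2 fold change. It names Jun among the genes changed by QJSB that are linked to G-CSF in a protein interaction network.

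Deviations of same-numbered QJSB and model libraries from their group means were correlated at 0.426, 0.123 and 0.107. The values for replicates 2 and 3 were just over the limit of 0.1 used here. A fit with the replicate number as a block was therefore also made, which called no member either (edgeR adjusted p = 0.440 for the lowest). The second QJSB mouse decided much of the size: without it the log2 fold change of Dusp1 was 0.76 in place of 1.69. The summed level of 12 neutrophil markers was 7556, 38046 and 28392 CPM in QJSB replicates 1, 2 and 3, the same order as the sum of the 10 members at 210, 407 and 332 CPM. In model the orders differed, with 4970, 20123 and 12263 CPM for the neutrophil markers and 193, 196 and 229 CPM for the members. The orders also matched in normal, with 23434, 23316 and 19831 CPM for the neutrophil markers and 442, 349 and 262 CPM for the members. In leucogen they matched too, with 49322, 57616 and 58980 CPM beside 283, 287 and 295 CPM. Fosl2 alone made up 113, 162 and 188 CPM of the member sum in QJSB, and 228, 210 and 240 CPM of it in leucogen. The order of the sum in leucogen is therefore not that of most members, and the third leucogen mouse was the highest for only 2 of the 10. All 12 neutrophil markers had a log2 fold change above 0 (median 1.13), 1 passed the study's limits on the edgeR p, and none was called or at 0. All 7 tested B cell markers were below 0 (median -2.16), 3 passed those limits as lower, and none was called. Of the 11 B cell markers, 1 was at 0 in every QJSB library. Below 0 were also 6 of 8 erythroid and 6 of 10 monocyte and macrophage markers, with none called. The part of these cells in the values of the members was not tested.

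In the rest of the pathway, 0 of 21 other immediate early genes, 0 of 19 kinases and serum response factors, 0 of 11 phosphatases and 0 of 8 other bZIP genes were called with QJSB. The medians were 0.32, 0.20, -0.095 and 0.021, and 18 of the 21 immediate early genes and 17 of the 19 kinases and factors lay above 0. At an unadjusted edgeR p under 0.05 with 1.5-fold, Klf2, a quiescence factor of lymphocytes, was at 1.08 (SE 0.34), Elk4 at 1.09 (SE 0.17), Mapk3, which encodes ERK1, at 0.71 (SE 0.26) and Rps6ka3 at -1.13 (SE 0.37), each with an edgeR adjusted p of 0.767. These 4 were chosen after their values were seen. Elk4 had 92.8 ± 8.53 CPM in model and 200 ± 34.0 CPM in QJSB (SD, n = 3).

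The third comparison set leucogen against model, with the same model libraries as the second. The Fos family split: Fos fell 4.39-fold and Fosl2 rose 2.00-fold in leucogen, and no other member was called. These 2 of 9 members stand beside 23.1% of 14184 genes called, 11.6% higher and 11.5% lower. The log2 fold change of Fos was -2.13 (SE 0.23, edgeR adjusted p = 0.00177) and that of Fosl2 was 1.00 (SE 0.13, edgeR adjusted p = 0.00239), and both were called in every alternative run. Junb (-1.03, SE 0.34, edgeR adjusted p = 0.0551), Dusp1 (-1.09, SE 0.40, edgeR adjusted p = 0.0706) and Jun (-0.70, SE 0.28, edgeR adjusted p = 0.0946) were not called but passed 1.5-fold with an unadjusted edgeR p under 0.05, as did 29.6% of all genes. With the DESeq2 p, as the study used it, Junb and Dusp1 passed and Jun did not, beside 20.2% of all genes. Jund was at -0.75 (SE 0.38), Atf3 at -0.70 (SE 0.46), Egr1 at 0.35 (SE 0.40) and Ier2 at 0.18 (SE 0.20). The number called was 5 with total counts in place of TMM, a scaling that puts the median of all genes at -0.22, and 4 with DESeq2, on FPKM with a pseudocount of 0.1, or without the second leucogen mouse.

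Of the other immediate early genes, 3 of 21 rose and 3 fell with leucogen, with a median of -0.14. Trib1 rose by 1.47 (edgeR adjusted p = 0.00988), Nfkbiz, an IκB protein, by 1.32 (edgeR adjusted p = 0.00177) and Klf6 by 1.03 (edgeR adjusted p = 0.00379). Cyr61 fell by 1.85, Klf4 by 0.69 and Zfp36l2, an mRNA decay factor, by 0.68, with edgeR adjusted p of 0.0155, 0.0397 and 0.0164. Cyr61 had 4 to 12 counts per leucogen library. Of 19 kinases and serum response factors, Elk4 rose (0.79) and Mapkapk2 (-0.89) and Map2k2, which encodes MEK2, (-0.69) fell. Of 10 phosphatases and feedback inhibitors, Dusp6 rose (0.63) and 9 did not pass, and 0 of 8 other bZIP genes were called at an adjusted p under 0.05, or with 1.5-fold at an unadjusted edgeR p under 0.05. Beside these, 7 of 12 neutrophil markers rose, with a summed level of 49322 to 58980 CPM in leucogen, 5 of 6 promyelocyte markers fell to a sum of 3487 to 4622 CPM, and none of them was at 0. Of 10 monocyte and macrophage markers 3 fell, Adgre1 (-1.28), Csf1r (-0.98) and F13a1 (-0.81), and none rose, with a sum of 1978 to 3153 CPM in model and 1495 to 1875 CPM in leucogen. Whether these cells carry the change of Fos or Fosl2 was not tested.

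**Figure D3:**
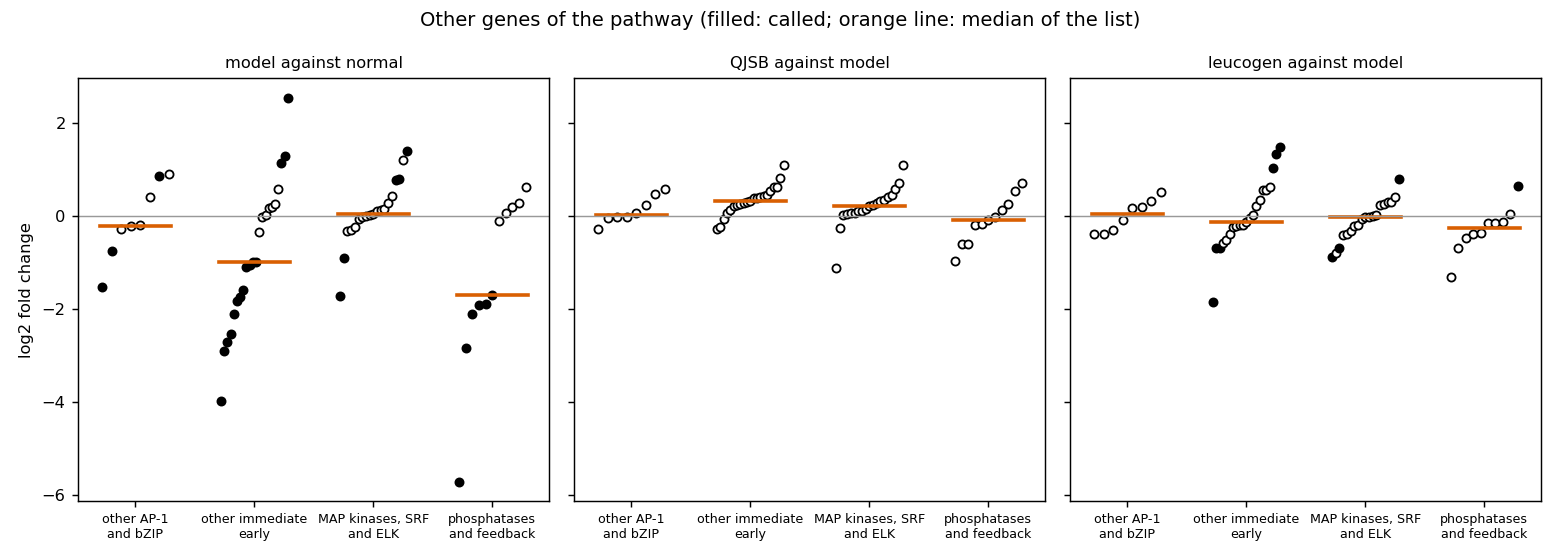
Log2 fold change (vertical axis) of each tested gene of 4 pathway lists in 3 comparisons, with filled points for called genes and an orange line at the median of the list. The immediate early and phosphatase lists sit low in model against normal, with medians of -0.99 and -1.69, and no point is filled for QJSB against model.

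Leucogen and QJSB were also compared directly, since each was given with the same cyclophosphamide. Fos, Dusp1, Jun, Jund and Junb were lower in leucogen than in QJSB, by 7.06-fold, 6.85-fold, 3.27-fold, 2.88-fold and 2.31-fold. That is 5 of 9 members, all 3 of the Jun family among them, beside 12.9% of 14266 genes called lower and 24.6% called in either direction. The log2 fold changes were -2.82 for Fos (SE 0.32, edgeR adjusted p = 0.00285), -2.78 for Dusp1 (SE 0.75, edgeR adjusted p = 0.0360), -1.71 for Jun (SE 0.36, edgeR adjusted p = 0.0101), -1.52 for Jund (SE 0.41, edgeR adjusted p = 0.0243) and -1.20 for Junb (SE 0.26, edgeR adjusted p = 0.0120). Each of the 5 was lower in all 3 leucogen mice than in any QJSB mouse, as were 25.6% of all genes. Fosl2 was higher in all 3 leucogen mice (log2 fold change 0.57, SE 0.20, edgeR adjusted p = 0.0587).

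Fos was called in every alternative of this comparison, and the others were not. Without the third leucogen mouse Fos was the 1 member called, and without the first or the second 3 were called. Removing the trend on GC content, an alternative chosen after the data had been seen, also left 3, with Jun and Fosl2 beside Fos, and ended the calls of Junb, at a log2 fold change of -0.64 in place of -1.20 (edgeR adjusted p = 0.134), and Jund, at -0.86 in place of -1.52 (edgeR adjusted p = 0.150). The call of Dusp1 was also lost, with a fold change closer to the first, at -2.44 in place of -2.78 (edgeR adjusted p = 0.0688). Dusp1 was also not called without a filter on low counts (-2.79, edgeR adjusted p = 0.119) or without the third QJSB mouse (-2.93, edgeR adjusted p = 0.0537), nor Jund without the second QJSB mouse (-1.16, edgeR adjusted p = 0.0718). The GC content of the members' transcripts runs from 51.9% for Fos to 67.1% for Jund, and its part in these differences was not tested further. Among the lists, 4 of 22 other immediate early genes were lower in leucogen, including Cyr61 (-2.14), Zfp36l2 (-1.08) and Sik1 (-0.84), and Nfkbiz was higher (1.19). Mapkapk2 (-1.13), Map2k2 (-0.83) and Spry2 (-0.69) were lower and Dusp6 (0.72) was higher. Of 12 neutrophil markers 1 was called, higher, and 4 of 6 promyelocyte markers were lower, with no marker of either list at 0. Of 10 monocyte and macrophage markers 8 were below 0. In that list 2 were called lower, C1qa (-0.90) and Csf1r (-0.90), and 1 was called higher. Of 7 stroma, bone and endothelium markers 1 was called, Col1a1, which was lower (-3.02). The part of cell composition in the changes of the members was not tested here either.

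Against normal marrow, Jund and Egr1 were lower in both drug groups. In QJSB, Jund was 4.44-fold lower (log2 fold change -2.15, SE 0.28, edgeR adjusted p = 7.5e-04) and Egr1 was 3.92-fold lower (-1.97, SE 0.25, edgeR adjusted p = 6.7e-04), 2 of 9 members called beside 19.9% of 14817 genes called lower and 37.9% in either direction. Jun was at -0.39 (SE 0.47) and Dusp1 at -0.78 (SE 0.70), neither of them called. In leucogen, 5 members were lower, beside 19.8% of 14637 genes called lower and 37.7% in either direction. They were Jund, 12.8-fold lower (edgeR adjusted p = 1.2e-06), Dusp1, 11.8-fold (edgeR adjusted p = 0.00644), Egr1, 6.36-fold (edgeR adjusted p = 2.6e-05), Jun, 4.31-fold (edgeR adjusted p = 0.00688), and Junb, 2.03-fold (edgeR adjusted p = 0.00996, or 0.0581 with the GC trend removed). Fosl2 was 1.49-fold higher than normal (edgeR adjusted p = 8.3e-04), just under the fold change required. Fos was at -2.17 (SE 0.95, edgeR adjusted p = 0.123) and was not called. It was called with DESeq2 (-2.20, DESeq2 adjusted p = 0.0376), with all 12 libraries in 1 fit (-2.19, edgeR adjusted p = 0.0242) and without the third normal mouse (-2.67, edgeR adjusted p = 0.00312). These comparisons share the normal libraries with each other and the drug libraries with those above.

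Against normal with QJSB, 11 of 23 other immediate early genes fell and 3 rose, and 6 of 12 phosphatases and feedback inhibitors fell and 2 rose. With leucogen, 12 of 22 and 6 of 11 fell, and 3 and none rose. Ppp1r15a was at -3.69 in QJSB and -4.35 in leucogen on the log2 scale, and Dusp2 at -2.57 and -3.52. Of 8 other AP-1 and related bZIP genes, 3 were called in each comparison. Jdp2, a bZIP repressor of AP-1 sites, rose in both, by 1.47 and 1.21, and Mafk fell in both (-1.52 and -1.83). Batf rose with QJSB (0.82) and Maf fell with leucogen (-0.66). Jdp2 had a mean of 14.6 CPM in normal and 26.9 CPM in model, so its level was not higher in the drug groups alone. Dusp8 had no count in any leucogen library, against 13.2 ± 0.821 CPM in normal (SD, n = 3).

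The members differed among mice of a group as well as between groups. In normal marrow the first mouse was the highest for 8 of 10 members and the third the lowest for 9. Fos differed 11.4-fold between these mice, Jun 3.16-fold and Dusp1 3.12-fold, and the SD of their log2 CPM was 1.75, 0.82 and 0.82, against a median of 0.15 over 15310 genes. Of all genes, 0.477%, 3.23% and 3.25% had a larger SD, while Jund, at 1.10-fold, was steadier than most, with 80.7% of genes more variable. The third normal library also held more muscle RNA, at 171 CPM summed over 5 muscle markers against 7.32 and 8.44 CPM in the other two, and its part in the order of these mice was not tested.

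In QJSB the second mouse was the highest for 8 of 10 members and the first the lowest for 7. Dusp1 differed 6.98-fold among these mice, a spread that 1.70% of genes exceeded. In model the third mouse was the highest for 7, and Fos differed by 1.09-fold, and 95.4% of genes varied more. In leucogen no mouse led for more than 5 members. Replicates of a group have no order, and the labels give no batch by which these mice could be split.

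**Figure D4:**
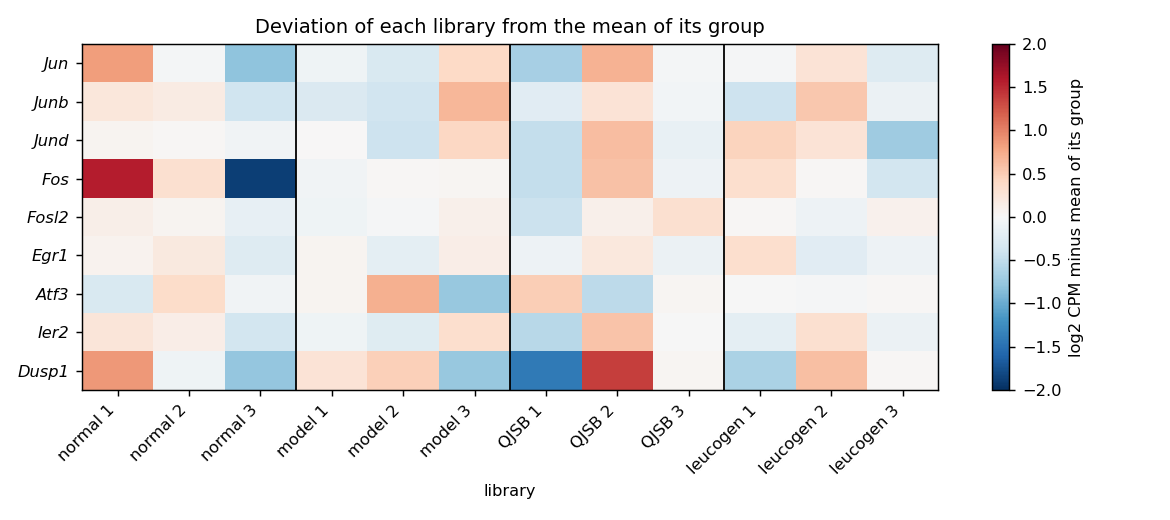
Deviation of each library from the mean of its group in log2 CPM (colour scale from -2 to 2), with 1 row for each of the 9 tested genes and 1 column per library. Jun, Fos and Dusp1 are all above the group mean in the first normal mouse and below it in the third, and the second QJSB mouse is above its group for most genes, with Atf3 below it there.

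Genes with the closest pattern were sought over the 12 libraries, as the smallest root mean square difference of centred log2 CPM among 10504 genes with a mean of at least 50 counts. For Fosl2 they were Atg7 (0.111), Svil (0.119) and Rcsd1 (0.129), and for Ier2 they were Cyfip2 (0.195), Slc9a3r1 (0.210) and Fmnl1 (0.211). For Junb they were Ccnb2 (0.224), Sesn2 (0.239) and Alkbh5 (0.243), and for Jund Pcx (0.400), Cdc25b (0.411) and Pigq (0.450). The genes closest to Jun were 3 histone genes, Hist1h4j (0.375), Hist1h2bm (0.397) and Hist1h2br (0.418). Dusp1 had no close neighbour, with Hist1h2bp at 0.836, Hist1h2bb at 0.847 and Bmf at 0.852. Set against its own mean, Dusp1 was at 1.53. Egr1 lay closest to Ctse (0.326), Rfx2 (0.335) and March2, identified by its gene ID, (0.338), and Atf3 to Zfp59 (0.236), Obfc1 (0.251) and Zfp418 (0.282). Fos had no close neighbour either, with Fam89b at 0.754, the clock gene Per1 at 0.781 and Polr2f at 0.832. Set against its own mean, Fos was at 1.28. Fosb, with 0 to 10 counts per library, lay nearest to Hist1h2af (0.416), Cd69 (0.460) and Hist2h2bb (0.461), beside 0.866 for Fosb set against its own mean.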

How the data were processed

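RNA of total femoral marrow from 12 mice in 4 groups of 3 was analysed. The authors depleted ribosomal RNA, prepared stranded libraries, cleaned the reads (Seqtk) and aligned them to GRCm38.p4 (Hisat2 2.0.4); the counting program is not given in the sources used here. The deposited table holds a whole-number read count per gene and library, without normalization, and the FPKM that the authors computed from fragments, transcript length and total fragments. All columns of samples were used, so 0 were left over, and groups were read from the column headings as described above. Supplementary mean counts served only to check that reading.

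Counts were tested over all genes with edgeR 4.0.16 in R 4.3.3 (TMM factors, filterByExpr, robust glmQLFit, glmQLFTest, Benjamini-Hochberg adjustment), with the libraries of both groups of a comparison in each fit and no covariate, for 6 comparisons. Log2 CPM used a prior count of 2. Each SE was derived from the edgeR test. It is the absolute log2 fold change divided by the square root of the F statistic. The procedure was first tested on simulated data. Total counts per library (11172547 to 18545198) set the counting error, which the spread between mice exceeded for every pair of replicates (chi-square per degree of freedom 10.2 to 99.6). Coordinates, overlaps and GC came from the table and from GENCODE M21 on GRCm38.

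The 10 members, the gene lists, the marker lists and the tests were chosen with earlier results of these data known. All members are named. Of each pathway list, up to 3 rises and 3 falls of largest log2 fold change among called genes without overlap of the groups are named, and other genes are said to be chosen later. A result that this rule would name is not reported here.

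Alternatives tried were the DESeq2 test (version 1.42.0), its size factors in edgeR, scaling by totals, keeping low counts, a joint fit of all 12 libraries, a block for the replicate number, limma-trend (limma 3.58.1) on log2(FPKM + 0.1) and log2(FPKM + 1) for a mean FPKM of at least 0.1, the study's fold and unadjusted P limits on the edgeR p and, added later, on the DESeq2 p that the study used, and each library left out. Same-numbered QJSB and model libraries had correlated deviations from their group means (0.426, 0.123 and 0.107 over 15310 genes), each over 0.1, which is the only source of this pairing; the 5 other comparisons did not meet that limit.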

Additional observations from a re-analysis of the deposited data

How the results depend on the processing

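Counts of members called were 4 for model against normal, 0 for QJSB against model, 2 for leucogen against model, 2 for QJSB against normal, 5 for leucogen against normal and 5 for leucogen against QJSB. With the study's fold and unadjusted P limits on the edgeR p, QJSB against model gave 5 and leucogen against model 5, and on the DESeq2 p, which the study used and which was added after seeing the data, each gave 4. Leucogen against model also gave 4 with DESeq2, 5 with total counts in place of TMM and 4 with limma-trend on log2(FPKM + 0.1). Leucogen against QJSB gave 3 with the trend on GC content removed, an alternative chosen after seeing the data. With each library left out in turn, the counts were 3 to 4, 0 to 0, 2 to 4, 2 to 2, 5 to 6 and 1 to 6 in the order above. With the replicate block, the call of Jun in model against normal was lost (edgeR adjusted p = 0.0659), which left 3, leucogen against QJSB gave 6, and the other counts did not change. That block rests on correlated deviations for QJSB and model only, and elsewhere the libraries share just a number. Of the fold changes recomputed under alternatives, 740 kept their direction and side of the threshold, 23 passed it newly, 22 no longer passed and 25 changed sign, all of these 25 for values that were not called. They were, for model against normal, Junb (0.0013, and -0.0041 with DESeq2, -0.0034 with its size factors, -0.0018 with all 12 libraries, -0.063 with the replicate block, -0.092 without the GC trend and -0.41 to 0.20 with a library left out), Fos (-0.053, and 0.076 with total counts, 0.43 with the block, 0.62 and 0.39 on FPKM + 0.1 and + 1 and -0.54 to 0.93 with a library left out) and Atf3 (-0.24 to 0.51 with a library left out). For QJSB against model they were Junb (-0.013 to 0.59) and Atf3 (-0.64 to 0.12), each with a library left out. For QJSB against normal they were Jun (-0.81 to 0.13), Atf3 (-0.42 to 0.14) and Fosl2 (-0.14 to 0.20) with a library left out, Fosl2 with the block (-0.0076) and without the GC trend (-0.22), and Junb without the GC trend (-0.046). Ier2 in leucogen against normal was at 0.032 without the GC trend. Among the counts of list members called, 391 stayed within 1.5 times the reported count and 29 did not. The cause of these shifts was not tested. Low counts limit the members Fosb, Atf3 and, in treated mice, Egr1. They also limit Cyr61 of the other immediate early genes, in normal and leucogen mice.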

Other observations

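Heat shock genes, which are also induced by stress and by handling of cells, were measured in the same libraries. Of 8 tested, Hsp90ab1 rose in model against normal (log2 fold change 1.34, SE 0.21, edgeR adjusted p = 0.0013), and Hsph1 (-1.80, SE 0.25, edgeR adjusted p = 8.3e-04) and Dnajb1 (-0.94, SE 0.17, edgeR adjusted p = 0.0026) fell. Hsp90ab1 had a mean of 507 CPM in normal, 1282 in model, 1477 in QJSB and 412 in leucogen. In leucogen against model, Hsp90ab1 (-1.63), Hspe1 (-0.82) and Hspd1 (-0.75) fell and none rose, with a median of -0.43 against -0.053 over all genes. None of the 8 was called in QJSB against model (0 also with 1.5-fold at an unadjusted edgeR p under 0.05). The inducible Hspa1a was low everywhere, at 0.881 ± 0.615 CPM in normal and 0.254 ± 0.169 in model (SD, n = 3), and was not among the tested genes.

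The summed level of the 11 heat shock genes was 2751, 3116 and 2148 CPM in the 3 normal mice. For the Jun family the sum in the same mice was 80.8, 66.9 and 51.8 CPM, so the third mouse was the lowest for both lists and the first mouse was the highest for the Jun family only. Stroma, bone and endothelium markers summed to 801 and 952 CPM in the first model and the first QJSB mouse, and to 218 to 496 CPM in the other mice.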
